A study of Mus musculus with 15 samples.

Results

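The genes described here encode the constitutive proteasome, its regulatory particle, its activators, its inhibitor and its assembly chaperones. They were chosen by symbol, as Psm followed by a letter from a to g and a number, which gave 53 rows of the deposited tables. The 3 immunoproteasome subunits Psmb8, Psmb9 and Psmb10 and 4 rows named as pseudogenes were left out, and 0 symbols stood on more than 1 row, so 46 of 38277 genes remained. The cells were JS1, a mouse hepatic stellate line made from TLR4-/- cells that express wild-type TLR4, and all 4 groups share that background. There were 4 libraries of cells with the XPO4 overexpression plasmid given TGFβ, 4 of empty-vector cells given TGFβ, 3 of XPO4 cells with no treatment (baseline) and 4 of empty-vector cells at baseline. The labels give no dose or duration of TGFβ, and do not say whether each line is 1 clone or a pool or whether libraries of a group came from separate cultures. The p-values therefore measure the spread between libraries, which may be technical. The design asks what overexpression of exportin-4, a nuclear transport receptor, changes in these cells without and with TGFβ, a cytokine that activates stellate cells.

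The proteasome degrades proteins tagged with ubiquitin. Its 20S core is a barrel of outer α rings, which gate the entrance, and inner β rings, which hold the proteolytic sites. The 19S regulatory particle caps the barrel; its ATPases (Psmc genes) unfold substrates and its non-ATPase subunits (most Psmd genes) bind and remove ubiquitin. Psme1 and Psme2 encode PA28α and PA28β, which together form an alternative cap that opens the core without ATP. That cap and the immunoproteasome subunits are known targets of interferon and serve antigen processing for MHC class I, whereas the core and 19S genes are expressed in nearly all cells.

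Values are FPKM (fragments scaled by transcript length and by library size), which can be compared between genes because they are per length. Library sums ran from 480030 to 526338 FPKM and 11829 to 11971 genes reached 1 FPKM; the files hold no counts, so read depth is unknown. Xpo4 itself measured 15.02, 12.8, 16.2 and 14.5 FPKM in XPO4 cells with TGFβ, against 4.56, 7.16, 8.84 and 8.04 FPKM in empty-vector cells with TGFβ. At baseline it measured 17.4, 13.97 and 15.6 FPKM in XPO4 cells, against 6.83, 9.33, 8.18 and 6.09 FPKM in empty-vector cells, so the construct groups did not overlap in either treatment. Of 10 stellate markers, 7 averaged at least 1 FPKM, and Lrat, which marks vitamin A storing cells, was listed at 0 in every library. Of these 7, Acta2 and Col1a1 were lower with the construct in both treatments, and the others overlapped between the constructs. Acta2 measured 13.2 to 18.9 FPKM in XPO4 cells against 41.6 to 50.7 FPKM in empty-vector cells with TGFβ. At baseline it measured 6.39 to 9.69 FPKM in XPO4 cells against 18.8 to 21.4 FPKM in empty-vector cells. The hepatocyte genes Alb, Ttr, Hnf4a and Serpina1a were at 0, and the hepatocyte list summed to at most 0.636 FPKM. The summed macrophage, endothelial and cholangiocyte lists reached at most 12.3, 3.34 and 12.2 FPKM. Within these lists Cd68, Csf1r and Lyz2 (macrophage, 3 of 5 measured), Lyve1 (endothelial) and Krt19 and Krt7 (cholangiocyte) averaged at least 1 FPKM. Mesothelial genes (Wt1, Msln, Upk3b, Gpm6a, 4 of 4 at 1 FPKM or more) summed to 98.9 to 211 FPKM, and the sum differed with the construct. The mean sum was 106 FPKM in XPO4 cells against 158.8 FPKM in empty-vector cells with TGFβ. At baseline it was 130 FPKM in XPO4 cells against 206 FPKM in empty-vector cells. Upk3b carried most of this, at 39.8 to 48.1 FPKM in XPO4 cells against 75.4 to 86.3 FPKM in empty-vector cells with TGFβ. Msln differed less, at 47.8 to 57.8 FPKM in XPO4 cells against 62.5 to 68.2 FPKM in empty-vector cells with TGFβ. The part of these marker differences in the results below was not tested. In bulk samples, fewer cells of a type and less RNA per cell cannot be told apart.

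The proteasome genes took 0.488 to 0.557% of all FPKM in a library. The 7 β subunits of the core had the highest levels as a class, with a median of 93.3 FPKM over genes and a span of 4.78-fold. Psmb3 (188 FPKM on average) and Psmb5, the chymotrypsin-like site of the constitutive core (187 FPKM), led the class, and Psmb6, the caspase-like site, was lowest at 39.3 FPKM. The 6 ATPases of the 19S base spanned 4.99-fold, from Psmc6 at 18.6 FPKM to Psmc5 at 92.8 FPKM. The 11 non-ATPase subunits spanned 11.4-fold, from the deubiquitinase Psmd14 at 23.2 FPKM to Psmd7, its partner without catalytic activity, at 265 FPKM, the highest level of all 46 genes. Subunits that share a complex thus differed several-fold in deposited level.

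The α subunits formed the least even class. Psma4 averaged 101 FPKM, Psma1 55.0 FPKM and Psma7 33.7 FPKM, but Psma2 stood at 7.80 FPKM, Psma3 at 7.61 FPKM and Psma5 at 2.79 FPKM. Psma6, which encodes an α subunit that every 20S core holds, was listed at 0 in all 15 libraries. Eif3k, Rpl38 and Eif2b4, which growing cells also use, were likewise listed at 0 in all 15, so a 0 in these tables can be a failed estimate. Psma8, a testis form of α4, was listed at 0 throughout, and Psmb11, the thymus form of the β5 site, was above 0 in 2 of 15 libraries, at 0.1004 and 0.0427 FPKM. These 3 genes were not tested, which leaves 43 that passed the filter of a mean of 1 FPKM.

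Among the other members, the 19S assembly chaperones Psmd5, Psmd9 and Psmd10 averaged 55.8, 21.7 and 17.7 FPKM. The core assembly chaperones fell apart into Psmg4 at 93.4 FPKM and Psmg3 at 45.1 FPKM on the higher side, and Psmg1 at 5.78 FPKM and Psmg2 at 3.84 FPKM on the lower side. Psme3, which encodes the nuclear activator PA28γ, averaged 135 FPKM, the fifth level of all members. Psme4, which encodes the activator PA200, averaged 7.96 FPKM and the inhibitor gene Psmf1 21.6 FPKM. Psmc3ip, taken in by its symbol, encodes a protein of meiotic recombination and no subunit, and averaged 15.9 FPKM.

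**Figure D1:**
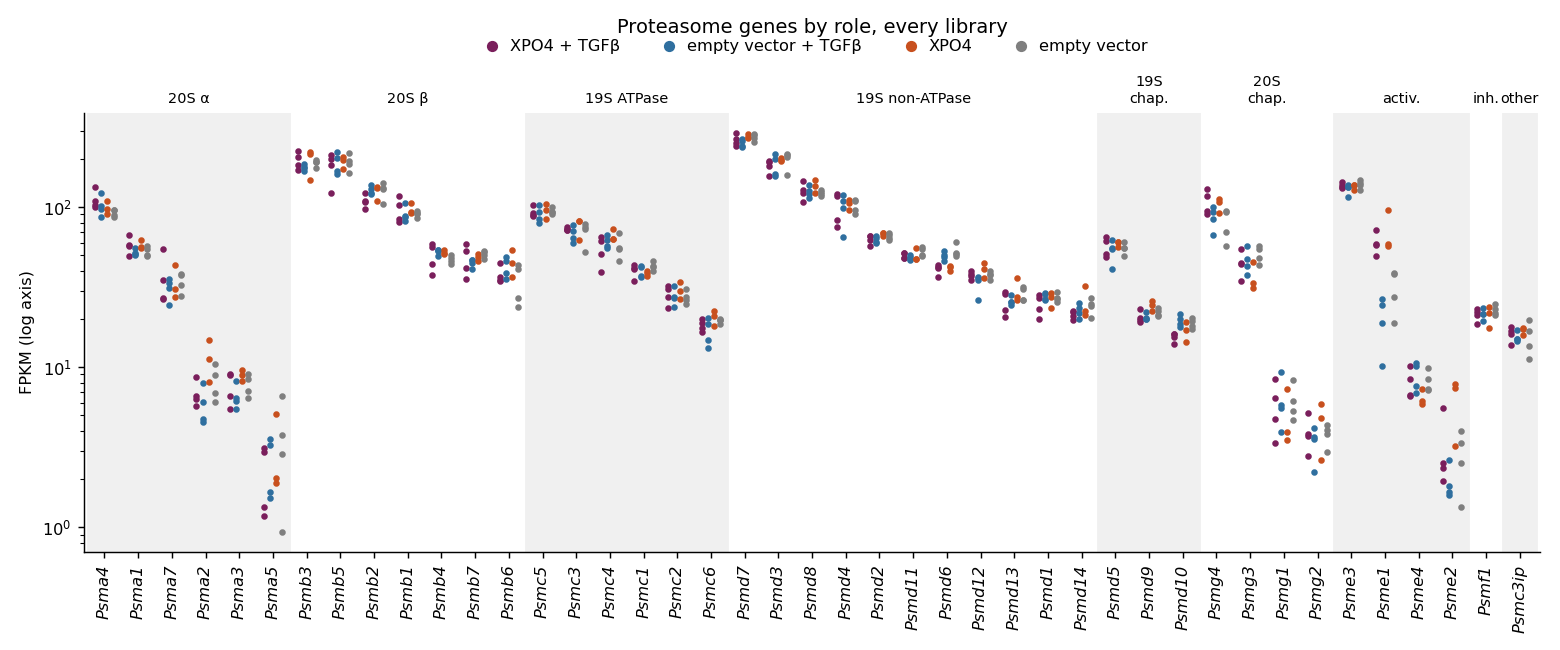
FPKM (log axis) of the 43 proteasome genes that passed the filter, ordered by role and by mean level; each point is 1 library and colours mark the 4 groups. The β subunits lie between about the levels of Psmb6 (39.3 FPKM) and Psmb3 (188 FPKM), and the XPO4 and empty-vector points of Psme1 do not overlap in either treatment.

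Psme1 was the member that stood out with the XPO4 construct. It measured 49.8, 58.8, 72.3 and 57.7 FPKM in XPO4 cells with TGFβ, against 26.6, 24.3, 18.8 and 10.2 FPKM in empty-vector cells with TGFβ. Every XPO4 library was above every empty-vector library, and the ratio of means was 2.99. The difference of log2(FPKM + 1) was 1.60 (SE 0.25, 95% interval 1.04 to 2.16), with an adjusted p of 0.0046 by limma with Benjamini-Hochberg correction over 11976 genes. Psme1 was the 1 member of 43 called higher at an adjusted p under 0.05, where 2.89% of all genes tested were called higher and 3.74% in either direction. With TGFβ 4 members had an unadjusted p under 0.05 (14% of all genes did). Within the first set of library codes (replicates 0 and 1) the difference was 1.06 and within the second (replicates 2 and 3) it was 2.14; the sets are not stated to be batches.

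At baseline Psme1 measured 58.5, 95.5 and 56.8 FPKM in XPO4 cells, against 38.9, 27.3, 18.8 and 38.4 FPKM in empty-vector cells. The groups did not overlap here either, and the ratio of means was 2.28, with XPO4 library 1 well above the other XPO4 libraries. The log2 difference was 1.18 (SE 0.27, interval 0.56 to 1.79), but its adjusted p of 0.0541 (limma, Benjamini-Hochberg over 11926 genes) missed the threshold of 0.05. It passed with a minimum mean of 5 FPKM (adjusted p = 0.0403), with array weights (0.0470) and with all 4 groups in 1 limma fit (0.0370). The difference was 1.17 within the first library set and 1.05 within the second. No member was called at baseline (0 of 43, limma), where 3.71% of all genes were called; 5 members had an unadjusted p under 0.05 (15.2% of all genes did). The difference between the effects with TGFβ and at baseline was 0.42 for Psme1 (interval -0.45 to 1.30), so the data do not show the effects of the construct to differ.

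Psme2, the partner of Psme1 in the PA28 ring, had a far lower deposited level. It measured 2.50, 5.56, 2.35 and 1.95 FPKM in XPO4 cells with TGFβ, against 1.59, 2.62, 1.66 and 1.8 FPKM in empty-vector cells with TGFβ. At baseline it measured 7.88, 7.46 and 3.24 FPKM in XPO4 cells, against 3.36, 2.52, 4.0 and 1.34 FPKM in empty-vector cells. XPO4 and empty-vector libraries overlapped in both treatments. The log2 differences were 0.42 (interval -0.15 to 1.0, adjusted p = 0.539) with TGFβ and 0.90 (interval 0.15 to 1.65, adjusted p = 0.227) at baseline, by limma with Benjamini-Hochberg correction, so neither passed. Without library 1 of the XPO4 cells with TGFβ, the highest of its group, the first difference was 0.17.

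**Figure D2:**
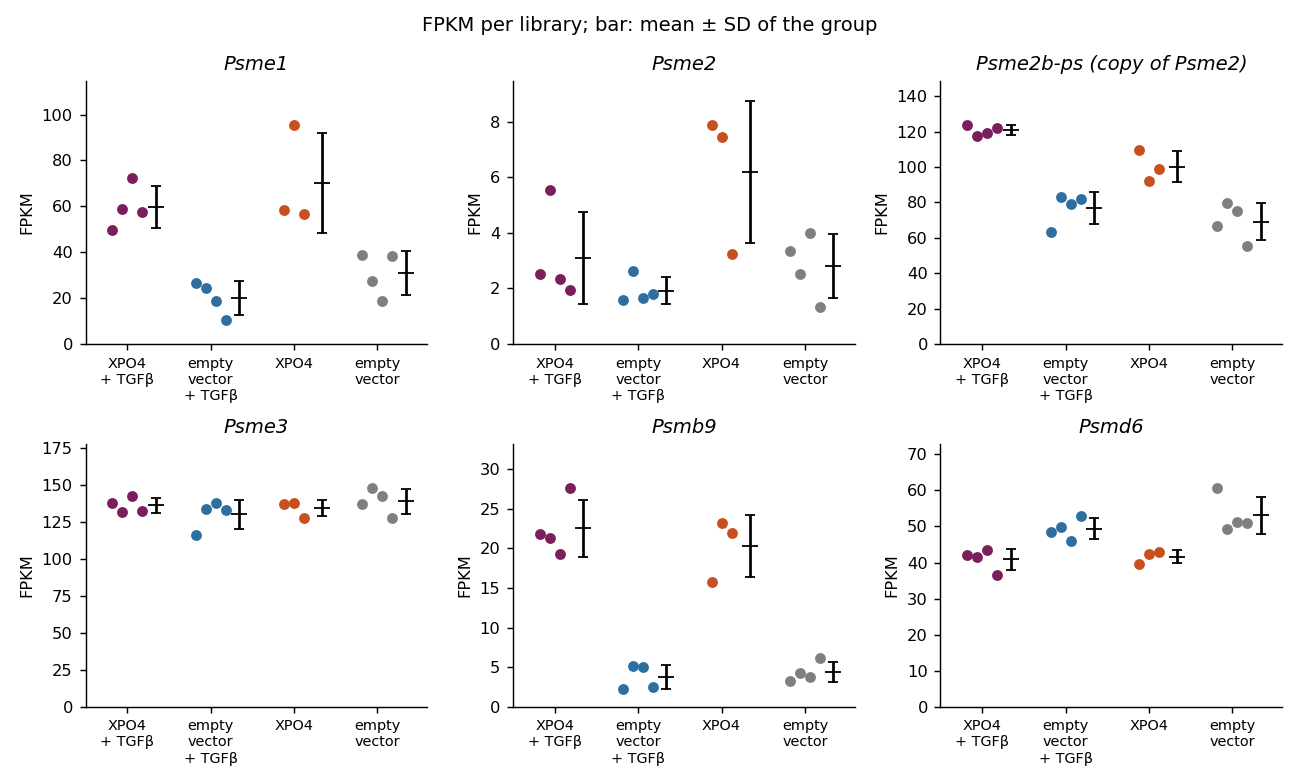
FPKM per library of Psme1, Psme2, the Psme2 copy Psme2b-ps, Psme3, Psmb9 and Psmd6 in the 4 groups; bars give the group mean ± SD and every axis starts at 0. Psme1, Psme2b-ps and Psmb9 separate XPO4 from empty-vector libraries in both treatments, with XPO4 higher. Psmd6 also separates them in both treatments, with XPO4 lower. Psme3 lies between 116 and 148 FPKM in all libraries.

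The low Psme2 level stands beside a near-identical gene copy. Psme2 lies on chromosome 14 (mm10, 55587441 to 55591113, minus strand), next to Psme1 (55578123 to 55581529, plus strand). A copy named Psme2b in the annotation and Psme2b-ps in the files lies on chromosome 11. Both coding sequences have 720 bases and differ at 5 of them (identity 99.3%), and the longest run without a difference is 311 bases. Counted from the first coding base, and with the Psme2 base first, the differences are C312T, A369G, C489T, C519T and C543T, each in codon position 3. The stretch from base 424 to base 543 shows how little separates the coding sequences, with the differing bases in capitals, 5′ to 3′:

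Psme2: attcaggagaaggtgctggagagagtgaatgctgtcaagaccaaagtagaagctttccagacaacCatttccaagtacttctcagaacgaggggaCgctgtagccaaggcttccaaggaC

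Psme2b: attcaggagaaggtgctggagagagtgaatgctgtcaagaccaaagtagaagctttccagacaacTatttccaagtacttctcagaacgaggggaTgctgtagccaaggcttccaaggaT

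Reads that lie within the coding sequence and cross none of these bases fit both genes. The copy aligned to 794 of the 962 bases of the Psme2 transcript, so reads from outside that alignment can separate them. The sources used here do not say how the authors assigned reads that fit both. The 2 rows are therefore uncertain as single values. Psme2b-ps measured 124, 118, 119 and 122 FPKM in XPO4 cells with TGFβ, against 63.3, 83.0, 79.0 and 81.9 FPKM in empty-vector cells with TGFβ. At baseline it measured 110, 92.3 and 98.6 FPKM in XPO4 cells, against 66.8, 79.6, 74.8 and 55.4 FPKM in empty-vector cells. The copy thus did not overlap between the constructs in either treatment, and the Psme2 row made up 1.58 to 7.48% of the sum of both rows.

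The sum of the rows, an alternative added after the values had been seen, averaged 124 ± 1.92 FPKM in XPO4 cells and 78.7 ± 9.45 FPKM in empty-vector cells with TGFβ (SD, n = 4 each). At baseline it averaged 106 ± 9.65 FPKM in XPO4 cells (SD, n = 3) and 72.0 ± 11.3 FPKM in empty-vector cells (SD, n = 4). On the log2 scale the sum was higher by 0.65 with TGFβ (SE 0.09, limma adjusted p = 0.00243) and by 0.57 at baseline (SE 0.13, limma adjusted p = 0.0511). With TGFβ the copy's row was called higher by itself (0.65, limma adjusted p = 0.00253), and the Psme2 row alone was not. Since the Psme2 row made up at most 7.48% of the sum, the call of the sum largely restates that of the copy's row. It is no separate support for a rise of Psme2.

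Read against the core and 19S subunits, the activator genes took different places. The median log2(FPKM + 1) of the 30 measured 20S and 19S subunits was 5.40 to 5.87 in XPO4 cells with TGFβ, 5.67 to 5.74 in empty-vector cells with TGFβ, 5.65 to 5.80 in XPO4 cells at baseline and 5.67 to 5.80 in empty-vector cells at baseline. The level of Psme1 minus that median was 0.01 to 0.80 in the XPO4 libraries with TGFβ and -2.25 to -0.92 in the empty-vector libraries with TGFβ. At baseline it was 0.20 to 0.80 in XPO4 libraries and -1.38 to -0.39 in empty-vector libraries. All 7 XPO4 libraries thus had Psme1 above the subunits' median and all 8 empty-vector libraries had it below. Psme2 lay below the median in every library, with differences of -4.16 to -3.16 in XPO4 cells and -4.33 to -3.83 in empty-vector cells with TGFβ. At baseline these were -3.57 to -2.55 in XPO4 cells and -4.47 to -3.37 in empty-vector cells. That side depends on the row used, since the sum of Psme2 and its copy lay above the median in 15 of 15 libraries. The sum's differences were 1.08 to 1.54 in XPO4 cells and 0.33 to 0.75 in empty-vector cells with TGFβ, and 0.86 to 1.19 in XPO4 cells and 0.16 to 0.71 in empty-vector cells at baseline, without overlap between the constructs. Psme3 lay above the median in all libraries (1.16 to 1.77) and Psme4 below it (-2.94 to -1.92). These gaps are given with no test.

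**Figure D3:**
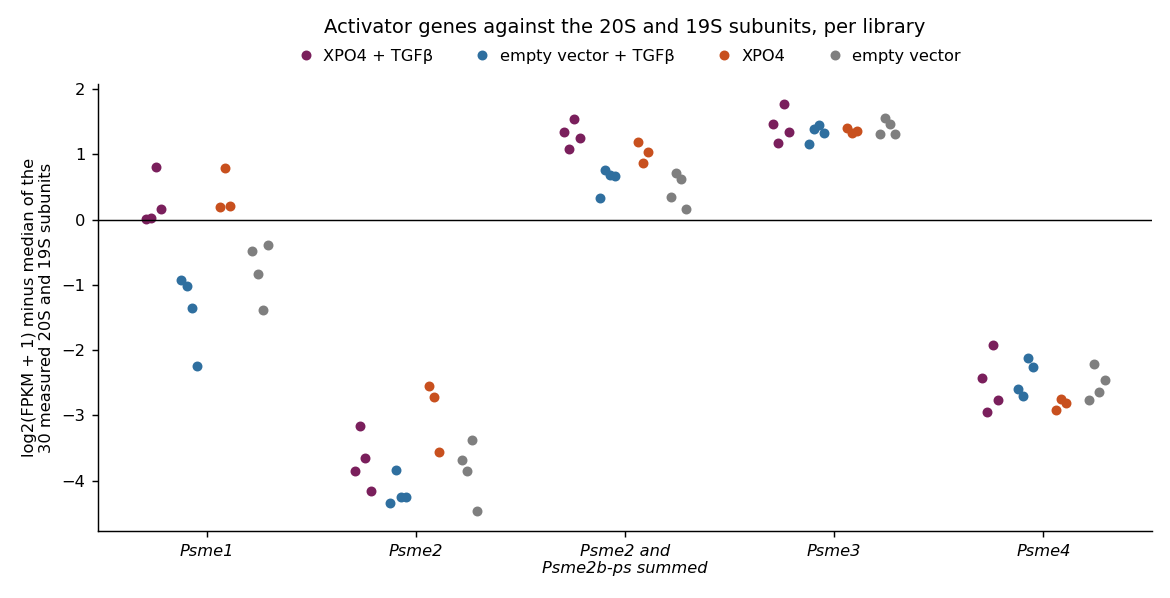
Log2(FPKM + 1) of the activator genes minus the median of the 30 measured 20S and 19S subunits in the same library, 1 point per library, with the line at 0 marking equality with that median. Psme1 lies above the line in all 7 XPO4 libraries and below it in all 8 empty-vector libraries, while Psme3 and Psme4 show no such split.

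The promoter windows of Psme1, Psme2 and the copy are shown because Psme1 and Psme2 are known interferon targets and the copy's row holds most of the summed level of the 2 rows. They come from RefSeq (GRCm38.p6), which had windows for 38 of the 46 members, and hold 250 bases before the start and here 30 after it. Capitals mark the core of the interferon-stimulated response element (ISRE), taken as GAAA, any 2 bases and GAAA again, on either strand. The windows, 5′ to 3′ on the gene's strand, are chr14:55578244-55578523 (plus) for Psme1, chr14:55591072-55591351 (minus) for 1 of 2 overlapping Psme2 windows, and chr11:48946381-48946660 (minus) for Psme2b:

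Psme1: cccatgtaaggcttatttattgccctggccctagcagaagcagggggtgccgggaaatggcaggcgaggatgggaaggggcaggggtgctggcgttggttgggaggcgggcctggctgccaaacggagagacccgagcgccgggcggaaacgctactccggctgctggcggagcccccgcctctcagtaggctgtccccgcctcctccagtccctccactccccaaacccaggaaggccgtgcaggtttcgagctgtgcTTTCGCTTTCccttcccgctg

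Psme2: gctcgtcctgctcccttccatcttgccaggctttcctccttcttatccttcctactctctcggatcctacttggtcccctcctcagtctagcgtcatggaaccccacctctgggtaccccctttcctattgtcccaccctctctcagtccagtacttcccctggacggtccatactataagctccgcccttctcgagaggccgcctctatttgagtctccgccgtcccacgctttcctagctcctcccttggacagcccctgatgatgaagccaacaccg

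Psme2b: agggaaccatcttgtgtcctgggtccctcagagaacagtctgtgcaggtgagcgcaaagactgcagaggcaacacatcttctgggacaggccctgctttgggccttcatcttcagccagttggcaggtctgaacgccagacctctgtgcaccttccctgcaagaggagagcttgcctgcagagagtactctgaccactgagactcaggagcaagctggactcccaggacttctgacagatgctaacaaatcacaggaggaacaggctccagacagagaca

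The Psme1 window held a match to the ISRE core on the reverse strand, 9 bases after the RefSeq start. That window lies inside the annotated Psme1 span given above, which begins at 55578123, so the distance depends on the annotation used. No match was in the windows of Psme2, the copy, Psme3 or Psmb9 at this length. Over the full windows of 300 bases, 3.99% of 27025 genes held this motif, as did 5 of 38 members (Psmb3, Psmd4, Psmd9, Psme1 and Psmg4). Of the 3 immunoproteasome genes, 0 held it. TTCNNNGAA, the letters of a STAT site, was in 9.55% of all genes and in 2 of 38 members (Psmd2, Psmg1). TGACNNNGC, the letters of the antioxidant response element that NRF factors bind, was in 14% of all genes and in 6 of 38 members (Psmb5, Psmb6, Psmc6, Psmd12, Psmd9, Psme4). Each motif was searched on both strands, none contains another, and a match describes the window only.

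With the XPO4 construct, none of the 30 measured 20S and 19S subunits was called in either treatment. Of all genes tested 3.74% were called with TGFβ and 3.71% at baseline, so a count of 0 among 30 is near the background. With TGFβ the subunits' median log2 difference was 0.03, beside 0.00 for all genes, and 27 of 30 were within 0.2 of 0 (67.1% of all genes were). At baseline the median was 0.05, and 26 of 30 were within 0.2 (66.5% of all genes). The 95% interval lay inside a 2-fold change in either direction for 30 of 30 subunits with TGFβ (90.5% of all genes) and for 29 of 30 at baseline (89.8% of all genes), the exception at baseline being Psma5. Psma5 measured 2.04, 5.07 and 1.88 FPKM in XPO4 cells, against 2.86, 6.57, 0.938 and 3.80 FPKM in empty-vector cells at baseline. Its interval ran from -1.13 to 0.91.

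Psmd6, a 19S lid subunit, was the lowest of the subunits in both treatments without passing the test. It measured 42.1, 41.4, 43.4 and 36.5 FPKM in XPO4 cells with TGFβ, against 48.5, 49.9, 46.0 and 52.9 FPKM in empty-vector cells with TGFβ. At baseline it measured 39.7, 42.2 and 42.99 FPKM in XPO4 cells, against 60.8, 49.3, 51.3 and 51.0 FPKM in empty-vector cells. The groups did not overlap in either treatment. The log2 differences were -0.27 (SE 0.08, adjusted p = 0.149) and -0.34 (SE 0.09, adjusted p = 0.0821) by limma with Benjamini-Hochberg correction, with ratios of means of 0.828 and 0.784, the values with TGFβ first. With all 4 groups in 1 fit the baseline difference passed (adjusted p = 0.0333).

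Other members without overlap between the constructs were few. With TGFβ these were Psme1 above and Psmd6 and Psmd10 below, 3 of 43 members, where 10.2% of all genes tested did not overlap. Psmd10 encodes the assembly chaperone gankyrin and had a log2 difference of -0.32 (SE 0.09, limma adjusted p = 0.12). At baseline they were Psme1 and Psmb4 above and Psmc1 and Psmd6 below, 4 of 43 members, where 16.2% of all genes did not overlap. Psmb4, a β subunit without a proteolytic site, measured 51.2, 53.9 and 51.0 FPKM in XPO4 cells, against 44.3, 50.01, 45.8 and 48.1 FPKM in empty-vector cells. Both shares of members are below those of all genes.

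The largest positive differences at baseline after Psme1 and Psme2 were those of Psma2, Psmb6 and Psmg4, each 0.43. Psma2, an α subunit, measured 11.3, 14.7 and 8.05 FPKM in XPO4 cells, against 8.98, 6.02, 6.90 and 10.5 FPKM in empty-vector cells. Psmg4, a chaperone of α-ring assembly, measured 108, 92.2 and 112 FPKM in XPO4 cells, against 92.7, 94.0, 56.9 and 69.9 FPKM in empty-vector cells. The largest negative one was Psmg3, the partner of Psmg4, with 45.0, 31.0 and 33.4 FPKM in XPO4 cells, against 48.4, 54.9, 43.2 and 57.3 FPKM in empty-vector cells. Its log2 difference was -0.48 (SE 0.14, limma adjusted p = 0.137; 0.0468 without XPO4 library 0), while that of Psmg4 was 0.43 (SE 0.17, limma adjusted p = 0.278). In each of these genes at least 1 XPO4 library lay within the empty-vector range.

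With TGFβ the differences next in size were 0.32 for Psmg4, 0.22 for Psma2 and -0.23 for Psmb2, a β subunit without a proteolytic site. None of these passed the test. Psmg3 differed by -0.05 with TGFβ, so its baseline value was not repeated there. The activators Psme3 and Psme4 were not called in either treatment. Psme3 averaged 136 ± 5.20 FPKM in XPO4 cells and 130 ± 9.67 FPKM in empty-vector cells with TGFβ (SD, n = 4 each), a log2 difference of 0.07 with an interval of -0.10 to 0.24. Psme4 differed by -0.13 (interval -0.52 to 0.25) with TGFβ and by -0.30 (interval -0.62 to 0.01) at baseline. The inhibitor gene Psmf1 differed by -0.02 with TGFβ and by -0.11 at baseline.

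**Figure D4:**
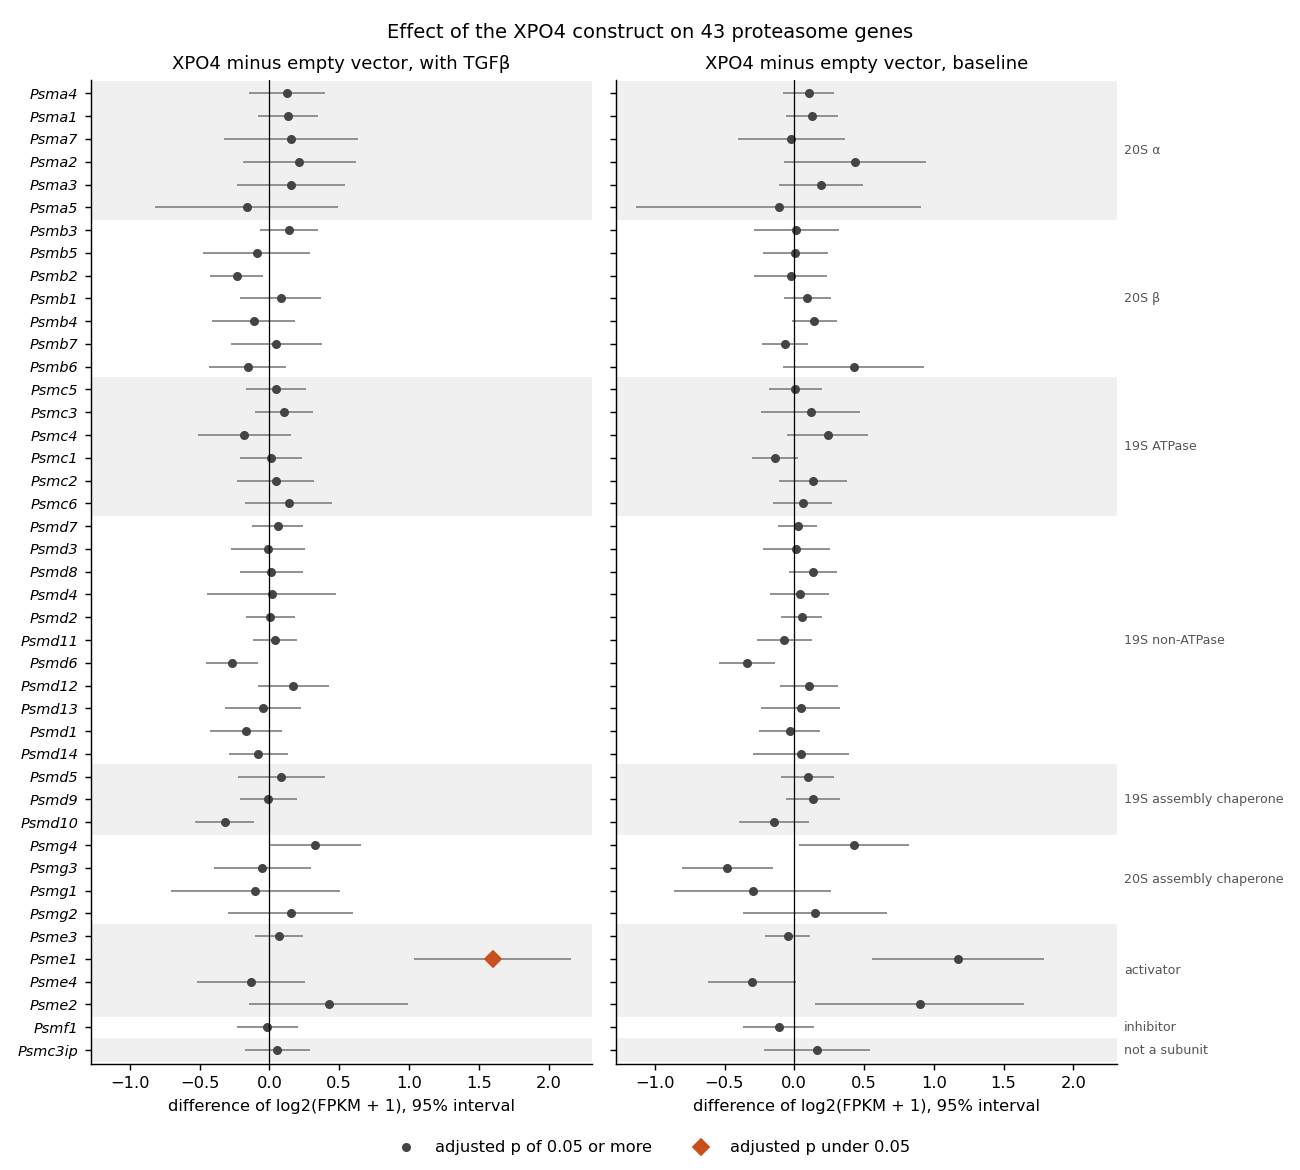
Difference of log2(FPKM + 1), XPO4 minus empty vector, with 95% intervals for the 43 tested genes in order of role and level, with TGFβ and at baseline. Psme1 lies at 1.60 and is called with TGFβ, and lies at 1.18 at baseline; most 20S and 19S subunits lie within 0.2 of 0.

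TGFβ itself left these genes with no call. In XPO4 cells 0 of 43 members were called by limma (1.77% of all genes tested), with 3 at an unadjusted p under 0.05 (10.1% of all genes). In empty-vector cells it was also 0 of 43 (1.77% of all genes), with 1 at an unadjusted p under 0.05 (11.5% of all genes). The median log2 difference was -0.10 in XPO4 cells, with 33 of 43 members below 0, and -0.08 in empty-vector cells, with 31 of 43 below 0, beside -0.01 for all genes in both. All 11 non-ATPase subunits were below 0 in XPO4 cells and 9 of 11 in empty-vector cells, none of them by more than 0.23. These sign counts have no test, and the members share their libraries. The share of all genes below 0 was not counted. Baseline and TGFβ values were deposited as separate sets, so a difference in their scaling cannot be told apart from an effect of TGFβ.

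The largest negative TGFβ differences were those of Psme2, Psma2 and Psme1. Psme2 differed by -0.82 (interval -1.50 to -0.13, limma adjusted p = 0.343) in XPO4 cells and by -0.34 (interval -0.98 to 0.30, limma adjusted p = 0.764) in empty-vector cells. Summed with its copy, the values were 0.22 and 0.13, so their sign depends on the row used. Psma2 differed by -0.64 in XPO4 cells (limma adjusted p = 0.24) and by -0.42 in empty-vector cells. Psme1 differed by -0.20 (interval -0.84 to 0.44) in XPO4 cells and by -0.63 (interval -1.22 to -0.04, limma adjusted p = 0.392) in empty-vector cells. Without XPO4 library 1 at baseline, the difference in XPO4 cells became 0.04, and without library 3 of the empty-vector cells with TGFβ, the difference in empty-vector cells became -0.35. The next largest negative one in XPO4 cells was that of Psmc4, a 19S ATPase, at -0.32 (limma adjusted p = 0.533). The largest positive differences were 0.28 for Psmg3, 0.26 for Psme4 and 0.18 for Psmg1 in XPO4 cells. In empty-vector cells they were 0.34 for Psmb6 (interval -0.04 to 0.73, limma adjusted p = 0.517) and 0.15 each for Psmb4 and Psmg4. Psmb6 measured 48.8, 45.7, 38.5 and 35.7 FPKM with TGFβ and 43.7, 40.9, 23.9 and 27.1 FPKM at baseline in empty-vector cells, and these groups overlapped.

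Members whose TGFβ and baseline libraries did not overlap were Psmd3 in XPO4 cells (9.85% of all genes tested) and Psmb7 in empty-vector cells (7.82% of all genes tested). Psmd3, a 19S lid subunit, measured 190, 193.6, 156.5 and 181 FPKM with TGFβ and 193.7, 203 and 198 FPKM at baseline, so the nearest libraries were almost equal. Psmb7, the trypsin-like site of the core, measured 46.9, 40.9, 47.0 and 44.8 FPKM with TGFβ and 52.6, 47.6, 50.03 and 53.0 FPKM at baseline. For the interaction of construct and TGFβ, limma called 0 of 43 members and 0% of all genes tested, with 1 member and 344 genes (2.88%) at an unadjusted p under 0.05. That member was Psmb6, with an interaction of -0.58 (interval -1.15 to -0.02).

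**Figure D5:**
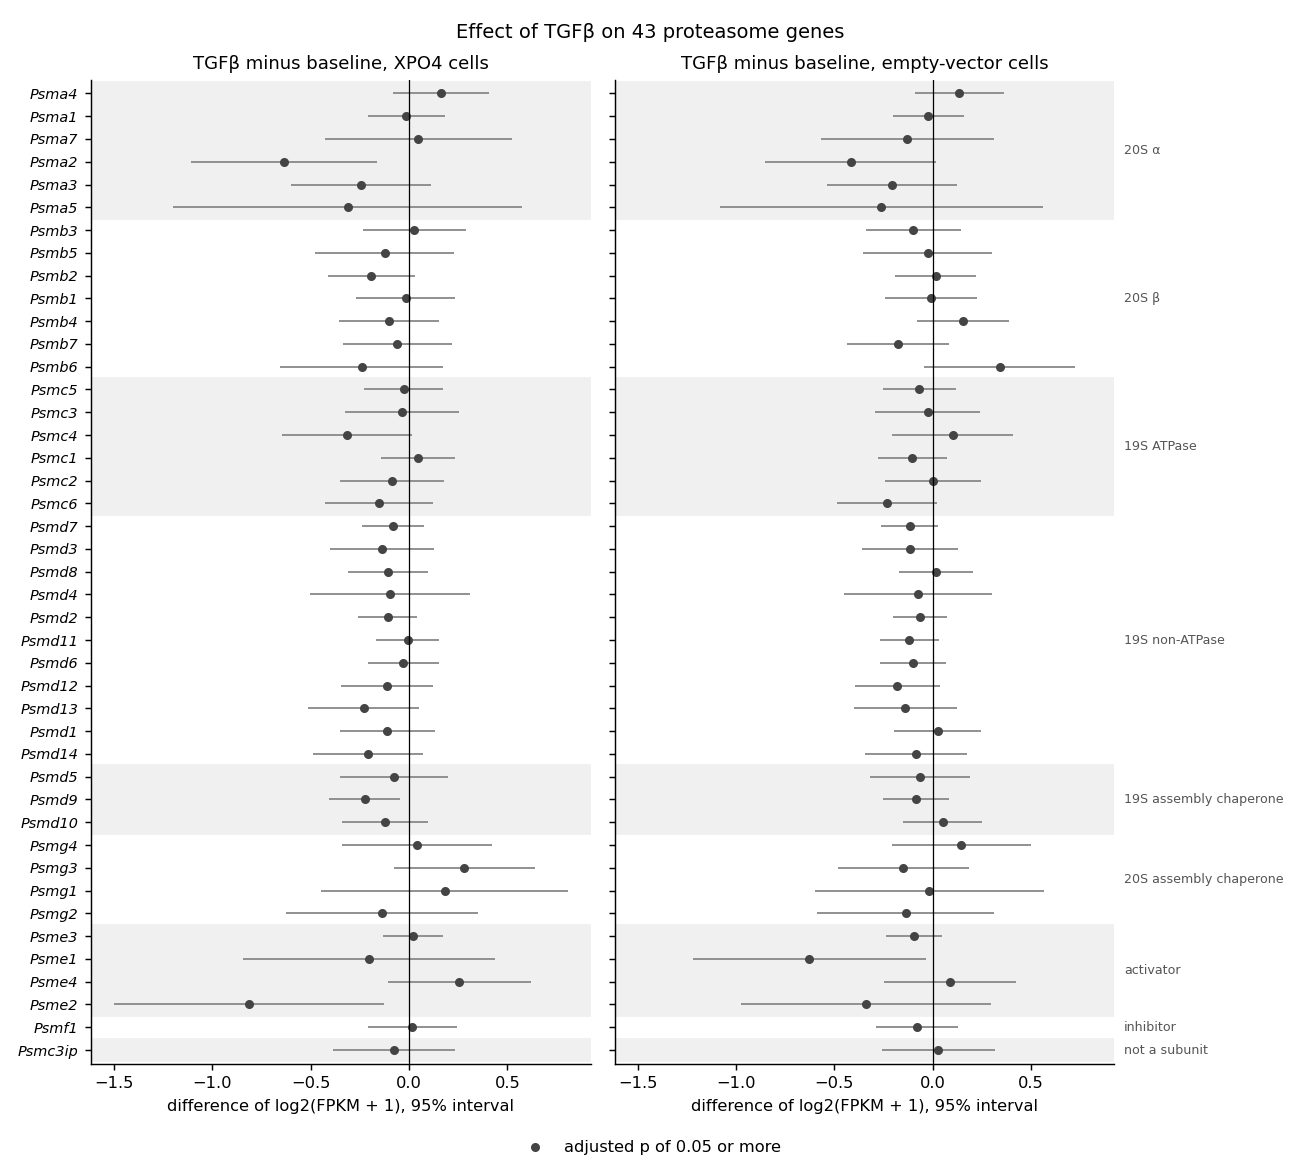
Difference of log2(FPKM + 1), TGFβ minus baseline, with 95% intervals for the 43 tested genes in XPO4 cells and in empty-vector cells. No gene was called; the medians over members are -0.10 and -0.08, and Psme2 and Psme1 carry the largest negative differences.

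Among other genes of the pathway, the immunoproteasome and class I genes were higher with the construct. All 3 immunoproteasome subunits rose with the construct under TGFβ: Psmb9 by 2.36 on the log2 scale (SE 0.22, limma adjusted p = 0.000114), Psmb10 by 1.31 (limma adjusted p = 0.0179) and Psmb8 by 1.19 (limma adjusted p = 0.0104). Psmb8 was low, at 2.54, 2.81, 1.62 and 2.18 FPKM in XPO4 cells with TGFβ, against 0.438, 0.542, 0.109 and 0.667 FPKM in empty-vector cells with TGFβ. It passed the filter of 1 FPKM only through the XPO4 libraries, and its difference was 2.27 with a pseudocount of 0.1, so its call adds no separate support. Psmb9 replaces Psmb6 in the inducible core, Psmb10 replaces Psmb7 and Psmb8 replaces Psmb5. Psmb9 measured 21.8, 21.3, 19.4 and 27.7 FPKM in XPO4 cells with TGFβ, against 2.27, 5.16, 4.98 and 2.51 FPKM in empty-vector cells with TGFβ. At baseline Psmb9 rose by 2.0 (limma adjusted p = 0.00047), while Psmb10 (0.73, adjusted p = 0.207) and Psmb8 (0.53, adjusted p = 0.224) did not pass. Without the trend in the limma fit Psmb8 passed (adjusted p = 0.030). Psmb8 averaged 1.52 FPKM in XPO4 cells and 0.745 FPKM in empty-vector cells at baseline. There too it met the filter only through the XPO4 libraries, so that pass adds no separate support. The Psmb10 call was lost without library 1 (adjusted p = 0.0619) or library 2 (0.0553) of the empty-vector cells with TGFβ. None of the constitutive counterparts Psmb5, Psmb6 and Psmb7 was called.

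Of 8 genes of class I antigen processing, 8 rose with the construct under TGFβ, where 2.89% of all genes tested were called higher, and 7 at baseline, where 2.85% were. Examples are the peptide transporter gene Tap1 (1.78 and 1.72 on the log2 scale) and the class I transactivator Nlrc5 (1.56 and 1.86), the value with TGFβ first; Erap1, a peptide trimming enzyme, passed with TGFβ (0.68, limma adjusted p = 0.0198) and missed at baseline (0.45, adjusted p = 0.0719). None of the 8 measured assembly and bound factors, among them the core maturation factor Pomp, and none of 8 regulators of proteasome genes, among them Nfe2l1, which drives the constitutive genes when proteasome activity is low, was called in any comparison, which is near the share of all genes called (3.74% or less). Nfe2l1 differed by 0.17 with TGFβ and by 0.06 at baseline. Of the ubiquitin, shuttle and unfolding genes, Zfand2a, an arsenite-inducible proteasome-binding factor, rose at baseline (0.32, limma adjusted p = 0.0354). The calls of Zfand2a and Erap1 depend on which libraries enter: they were lost in 6 of 7 and 5 of 8 fits that left out 1 library, with adjusted p-values of up to 0.130 and 0.0705. The median log2 differences with TGFβ and at baseline were 1.32 and 1.28 for the class I list and 0.03 and 0.04 for assembly and bound factors, beside 0.00 for all genes tested. These lists were drawn up knowing that interferon-related genes were higher in these XPO4 cells.

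Psme2 is not the only member with a near copy. By sequence comparison, 11 of 46 members have an annotated copy of at least 95% identity over at least 200 bases, and for 5 of them a copy averaged at least 1 FPKM. Copies took 43.8% of the summed level for Psma3 and 35.2% for Psma5, both low α subunits, and 0.582% for Psmb3. No copy of that kind was found for Psma6, Psmg1, Psmg2 or Psme1, nor for Psma2. The annotated span of Psma2 overlaps that of AW209491, a protein-coding gene on the same strand with a mean of 17.6 FPKM, over 8943 bases, and the sources used here do not say how reads that fit both were counted. The levels and differences of Psma2 are therefore uncertain too.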

How the data were processed

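The deposited values are FPKM, which the authors made for 15 libraries in 2 tables of 38277 genes, 1 per treatment. Per the labels' protocols, poly(A) RNA was made into directional dUTP libraries. The submitters' processing notes name STAR 2.7.2b, CASAVA 1.8.2 and the builds mm10 and GRCh38, without roles; the tool that wrote the FPKM and its handling of reads that fit several genes are not named.

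Differences of log2(FPKM + 1) were tested with limma 3.58.1 (trend, R 4.3.3) for genes averaging at least 1 FPKM, adjusted by Benjamini-Hochberg over all genes tested, with a threshold of 0.05. The XPO4 effects were fitted on 7 baseline and 8 TGFβ libraries, and the TGFβ effects and interaction on all 15 joined by gene identifier. The fit was tested on simulated data. Copies were sought with BLAST 2.17.0 in GENCODE M21, and figures drawn with matplotlib 3.10.9. Libraries were not paired by replicate number, except where the replicate block was an alternative. Deviations of same-numbered libraries correlated between -0.149 and 0.294, and those of different-numbered libraries between -0.266 and 0.249. The value of 0.294 was that of replicates 2 of empty-vector cells at baseline and XPO4 cells with TGFβ. Whether replicates share an effect was not tested. The named genes were Psme1 to Psme4, every member called, the highest and lowest of each role, the 3 largest rises and falls per comparison and the genes of 5 pathway lists. The members and lists were chosen with earlier results of these data known. Some genes of the pathway lists are not reported here by name. Alternatives were pseudocounts of 0.1 and 0.5, no filter or 5 FPKM, quantile normalization, median centring, a TPM scale, blocks, array weights, no trend, 1 fit for all groups, leaving out each library, and the sum of Psme2 and its copy, which was added after the values were seen.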

Additional observations from a re-analysis of the deposited data

Results flagged for a closer look

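Psmd12, a 19S lid subunit, had 26.08 FPKM in library 3 of the empty-vector cells with TGFβ, far below the other libraries of that group (35.2 to 36.4 FPKM). Psmd3, another lid subunit, had 159.3 FPKM in library 2 of the empty-vector cells at baseline, against 206 to 213 FPKM in the other libraries of that group. Both were singled out because the gap to the nearest library took more of the group's range than Dixon's 95% critical value for 4 libraries allows. The test was run on 132 groups and chance gives about 1 in 20, so 2 such values are fewer than chance gives. Neither gene was called in any comparison.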

How the results depend on the processing

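The call of Psme1 with TGFβ held under every alternative run, with adjusted p-values of 0.00106 to 0.0173 over libraries left out and 0.0204 with the replicate block (difference 1.60). Its baseline difference passed with a minimum mean of 5 FPKM (1.18), with array weights (1.01) and with all 4 groups in 1 fit (1.18). Members called at baseline were therefore 1, 1 and 2 under these settings instead of 0, the second with all groups being Psmd6. Leaving out a library gave 0 to 1, the 1 being Psmg3, at -0.64 without XPO4 library 0 (adjusted p = 0.0468). Summing Psme2 with Psme2b-ps gave 2 called members with TGFβ, Psme2 then differing by 0.65, and turned the sign of Psme2 for TGFβ in empty-vector cells (0.13), for TGFβ in XPO4 cells (0.22) and for the interaction (0.087). Psme2 with TGFβ ran from 0.17 to 0.56 over libraries left out. The TGFβ difference of Psme1 ran from -0.84 to -0.35 in empty-vector cells, and in XPO4 cells from -0.33 to 0.036 (without XPO4 library 1 at baseline). Over all genes, the replicate block lowered the baseline calls to 224 from 443, and the cause was not tested. It also ended the baseline call of Xpo4 itself (0.87, adjusted p = 0.0891) and changed no call of a member. Psmb10 with TGFβ lost its call with no filter (adjusted p = 0.0528), with the replicate block (0.0771) and without empty-vector library 1 (0.0619) or 2 (0.0553). Psmb8 at baseline gained one with no trend (0.53, limma adjusted p = 0.030). Its difference was 2.27 with TGFβ and 0.95 at baseline with a pseudocount of 0.1, against 1.19 and 0.53. In both treatments Psmb8 met the filter of 1 FPKM only through the XPO4 libraries. With all 4 groups in 1 fit, 676 genes instead of 448 were called for the construct with TGFβ, and with array weights 323 instead of 212 for TGFβ in empty-vector cells. Leaving out a library gave 118 to 214 genes called for TGFβ in XPO4 cells instead of 211 (118 without baseline XPO4 library 1, 130 without 0), and 108 to 243 in empty-vector cells instead of 212 (108 without library 1 with TGFβ, 121 and 140 without baseline libraries 0 and 3). For the construct at baseline it gave 276 to 451 instead of 443 (276 and 289 without XPO4 libraries 0 and 1). Read depth is unknown, which limits what can be said of genes under about 5 FPKM (Psma5, Psme2, Psmg2).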
